A study of Mus musculus with 6 samples.

Results

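Sodium-proton, sodium-calcium, bicarbonate, phosphate, sulfate and chloride transporters of 8 solute carrier families were examined in cells of mice at postnatal day 7 that are labelled bladder epithelial. The set held every gene whose symbol begins with Slc4a, Slc8a, Slc9a, Slc12a, Slc20a, Slc24a, Slc26a or Slc34a and that had a probe set annotated to it alone, 49 of 18193 genes measured in this way, on 101 probe sets. Of the 49, 46 encode transporters. The other 3 share the spelling but are partner proteins: the adaptor Slc4a1ap (kanadaptin) and the scaffolds Slc9a3r1 and Slc9a3r2 (NHERF1 and NHERF2). RNA of DsRed-positive and of DsRed-negative cells was read on 6 Affymetrix arrays, 3 a group, numbered 1, 2 and 5 in each. All animals are labelled male, of the strain FVB/N x C57BL/6, with the allele B6;129P-Upk1btm1Zhang/J given as the reported gene in both groups, so there is no group without it. Upk1b encodes a uroplakin of the urothelial surface. Epithelium was loosened with trypsin, freed by microdissection and digested to single cells. DsRed is a red fluorescent protein; its promoter and the way its cells were separated were not given in the sources used here. Samples were not pooled, and nothing states that each sample is a different animal; p-values therefore measure only the spread between these samples. The comparison asks which members differ between cells with and without the reporter.

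As background, these proteins use ion gradients, mainly the sodium gradient made by the sodium pump, to move other ions without spending ATP themselves. Sodium-proton exchangers (Slc9) and bicarbonate transporters (Slc4) set cell pH. Cation-chloride cotransporters (Slc12) set cell chloride and volume, either by bringing sodium, potassium and chloride in or by letting potassium and chloride out. Slc20 and Slc34 proteins take up phosphate, Slc8 and Slc24 proteins expel calcium, and Slc26 proteins carry anions such as chloride, bicarbonate and sulfate. Urothelium separates urine of widely varying composition from tissue fluid, so its cells have to keep their own volume and pH.

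Several facts of the arrays bear on every value below. Values are log2 signals after an offset and quantile normalization, a control level is the 95th percentile of 27 bacterial control probe sets on each array (7.41 to 8.03), and "passed" means an adjusted p under 0.05 by limma over all tested probe sets. Marker genes of several cell types differed between the groups. All 5 uroplakins of a marker list were higher in DsRed-positive cells, with a summed deposited signal of 135518 to 251163 in the DsRed-positive arrays and 6695 to 18521 in the DsRed-negative arrays. All 8 markers of superficial and differentiated urothelium and 5 of 7 basal markers were higher too. All 8 fibroblast and matrix markers were lower, with sums of 14734 to 28709 in the DsRed-positive arrays and 657308 to 1534717 in the DsRed-negative arrays. Of the tested markers, 5 of 6 were lower for smooth muscle and mural cells (sums of 2061 to 2894 in the DsRed-positive arrays and 108676 to 198754 in the DsRed-negative arrays), 4 of 5 for endothelium, 5 of 6 for leukocytes, 2 of 4 for mast cells, 2 of 2 for erythroid cells and 0 of 4 for nerve and Schwann cells. No marker had a deposited value of 0. The markers of the DsRed-negative arrays thus do not match the label of epithelial cells alone. In bulk RNA of this kind, fewer cells of a type and less RNA per cell cannot be told apart. The arrays numbered 1 went against their label of male: Xist, expressed from the inactive X chromosome, read 15.08 and 15.48 on them and at most 8.89 on the others, and the Y-linked Eif2s3y read 6.32 and 5.44 against at least 11.78. Results are therefore also given without both of them.

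Most members did not separate DsRed-positive from DsRed-negative cells, and among transporters only Slc12 held calls in both directions. Of the 49 members, 35 were bright enough to be tested, and of these 6 were higher in DsRed-positive cells, 2 were lower and 27 did not pass. The 6 are 17.1% of the tested members, beside 9.21% of all 14222 tested genes called higher, and the 2 are 5.71%, beside 11.3% called lower. A member that is bright in 1 group passes the filter on dim probe sets on that account, so the shares describe the tested members only and do not set these families apart. The higher members were the sodium-proton exchanger Slc9a2, the cotransporters Slc12a7 and Slc12a8, the bicarbonate transporters Slc4a4 and Slc4a9, and the scaffold Slc9a3r1, and the lower ones were the cotransporter Slc12a4 and the scaffold Slc9a3r2. By family, the calls fell in Slc4 (2 higher of 7 tested), Slc9 with its scaffolds (2 higher and 1 lower of 9) and Slc12 (2 higher and 1 lower of 7). None of the tested members of Slc8 (1), Slc20 (2), Slc24 (2), Slc26 (4) and Slc34 (3) passed by limma. Over all 35 tested members, 13 had an unadjusted limma p under 0.05. The share of all tested genes under that threshold was not counted, so the 13 do not set these families apart. The median log2 change of the tested members was -0.05, beside 0.04 for all tested genes; the scaling moved both, to 0.27 and 0.37 when arrays were centred on their medians and to -0.27 and -0.17 on deposited values. The arrays of the 2 groups did not overlap for 9 members that read higher in DsRed-positive cells, or 25.7% beside 22.0% of all tested genes, and for 2 that read lower, or 5.71% beside 21.4%. Without a call, Slc4a11, Slc4a1ap and Slc9a7 made up the difference. The control level was passed on all 6 arrays by 18 of the 49 members.

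**Figure D1:**
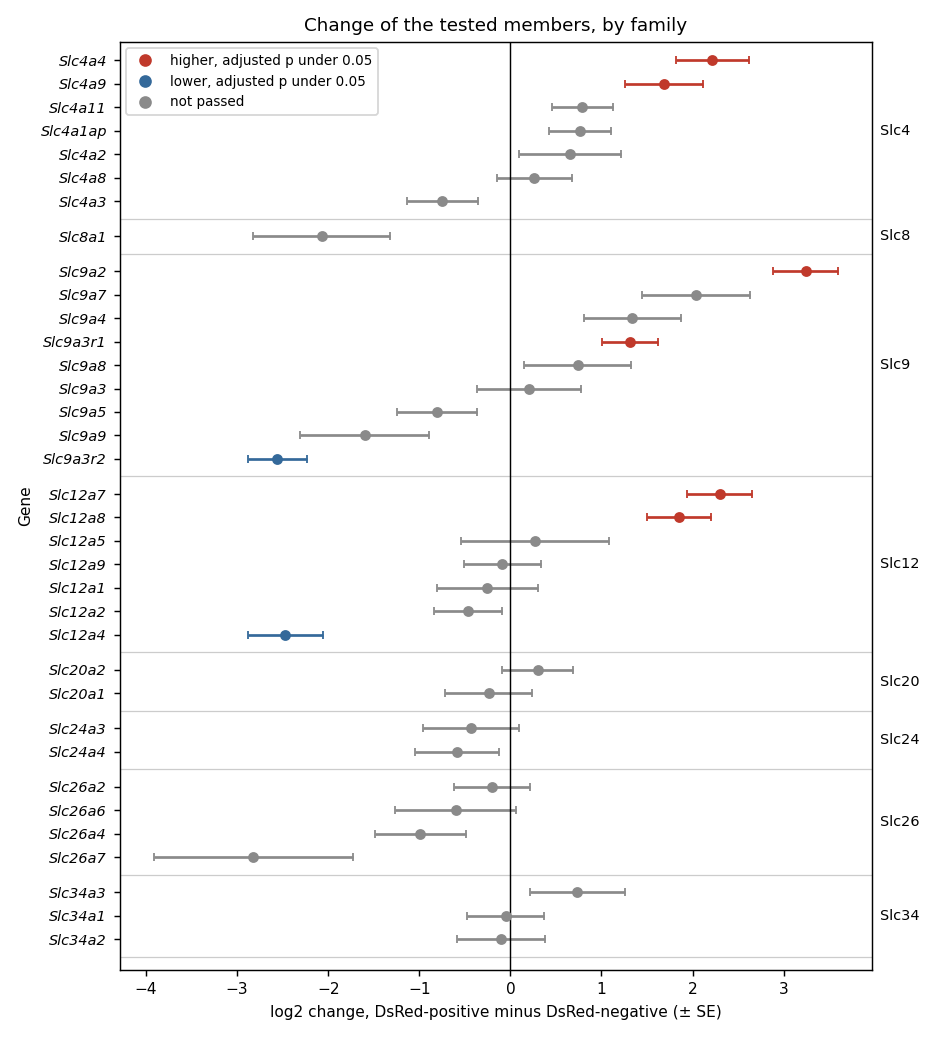
Log2 change of each of the 35 tested members, DsRed-positive minus DsRed-negative, with its standard error (bars), grouped by family; red and blue points passed the test and grey points did not. Slc9a2 has the largest change that passed (3.24), and the Slc9 and Slc12 families each hold called members on both sides of 0.

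Without both arrays numbered 1, which leaves 2 arrays a group, 1 member was higher (Slc9a2) and 1 lower (Slc9a3r2) of 35 tested, beside 3.48% and 5.49% of all genes called in the same fit. Of the 8 calls, 5 were kept in each of the 6 fits without 1 array: Slc9a2, Slc12a7, Slc4a4, Slc12a4 and Slc9a3r2.

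The plainest contrast lay among the potassium-chloride cotransporters, which let potassium and chloride leave the cell and so lower its volume and chloride. Slc12a7 (KCC4) read 13.54, 13.03 and 13.44 in the DsRed-positive arrays and 11.33, 10.63 and 11.17 in the DsRed-negative arrays, each given in the order 1, 2, 5 as throughout. Every DsRed-positive array lay above every DsRed-negative one. The change was 2.30 ± 0.35 (SE, adjusted p = 0.00435), a 4.91-fold difference, and 2.33 (adjusted p = 0.0546) without both arrays numbered 1. Slc12a4 (KCC1), a widely expressed relative with the same transport function, ran the other way, at 8.90, 9.00 and 8.07 against 11.08, 11.59 and 10.72. Here all DsRed-positive arrays lay below all DsRed-negative ones, and the change was -2.47 ± 0.41 (SE, adjusted p = 0.00601), 5.54-fold lower, or -2.56 (adjusted p = 0.0739) without both arrays numbered 1. Fibroblast, muscle and vessel markers were lower in the same arrays as Slc12a4, and their part in its change was not tested.

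The 2 PDZ scaffolds that hold exchangers at the cell surface also gave calls in opposite directions on their brightest probe sets. Slc9a3r1 (NHERF1), which links transporters to ezrin under the apical membrane, read 14.47, 14.38 and 14.58 against 13.31, 13.05 and 13.13, DsRed-positive first, with no overlap. Its change of 1.31 ± 0.31 (SE, adjusted p = 0.0248) is 2.48-fold. The spread within each group was small, yet 5 of 6 fits that left out 1 array lost the call (at most 0.0846, leaving out DsRed-positive 5). The adjusted p was 0.0586 with the array number as a replicate block and 0.118 without both arrays numbered 1. Slc9a3r2 (NHERF2) read 8.53, 8.75 and 8.28 against 11.27, 11.09 and 10.87, again without overlap but in the opposite direction. Its change was -2.56 ± 0.33 (SE, adjusted p = 0.00180), 5.89-fold lower, on its brightest probe set. As the average of its probe sets the value was -0.80 (adjusted p = 0.0664), which did not pass, and the 4 tested ones did not give the same direction. NHERF2 is also made by vessel endothelium. Tested endothelial markers were lower in 4 of 5 cases in the same arrays, with sums of 1072 to 1267 in the DsRed-positive arrays and 8379 to 12768 in the DsRed-negative arrays, and their part was not tested.

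The promoters of these relatives are shown because each couple gave calls in opposite directions, those of Slc9a3r2 on 2 of its 4 tested probe sets. They run from 250 bases before to 50 bases after the annotated start, from RefSeq on GRCm38.p6, taking the start nearest the gene's outer end where several are listed. All 4 are rich in G and C (64.3% to 67.3%), and capitals mark matches on either strand to the GC box GGGCGG, the nuclear receptor hexamer AGGTCA and the ETS site CCGGAA.
Slc12a7, GRCm38.p6 chr13:73763410-73763709, strand +: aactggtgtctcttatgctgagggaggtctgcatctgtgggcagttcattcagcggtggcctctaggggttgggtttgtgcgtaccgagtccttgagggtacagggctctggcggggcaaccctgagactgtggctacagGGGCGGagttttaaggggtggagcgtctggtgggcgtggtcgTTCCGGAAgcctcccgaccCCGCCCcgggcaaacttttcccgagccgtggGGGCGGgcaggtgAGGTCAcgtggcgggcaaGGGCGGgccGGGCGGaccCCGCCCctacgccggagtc
Slc12a4, GRCm38.p6 chr8:105966066-105966365, strand -: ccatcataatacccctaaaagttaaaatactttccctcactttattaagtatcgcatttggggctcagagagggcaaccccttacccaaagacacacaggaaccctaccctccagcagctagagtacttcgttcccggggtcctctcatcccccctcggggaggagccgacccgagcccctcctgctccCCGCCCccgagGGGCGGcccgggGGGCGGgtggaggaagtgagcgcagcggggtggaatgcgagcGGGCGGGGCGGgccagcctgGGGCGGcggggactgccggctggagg
Slc9a3r1, GRCm38.p6 chr11:115163091-115163390, strand +: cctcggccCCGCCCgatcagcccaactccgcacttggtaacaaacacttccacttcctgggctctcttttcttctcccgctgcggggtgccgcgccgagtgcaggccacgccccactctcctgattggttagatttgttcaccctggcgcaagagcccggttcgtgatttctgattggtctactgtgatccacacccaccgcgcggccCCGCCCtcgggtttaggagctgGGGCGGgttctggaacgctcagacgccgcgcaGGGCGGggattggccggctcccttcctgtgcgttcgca
Slc9a3r2, GRCm38.p6 chr17:24650256-24650555, strand -: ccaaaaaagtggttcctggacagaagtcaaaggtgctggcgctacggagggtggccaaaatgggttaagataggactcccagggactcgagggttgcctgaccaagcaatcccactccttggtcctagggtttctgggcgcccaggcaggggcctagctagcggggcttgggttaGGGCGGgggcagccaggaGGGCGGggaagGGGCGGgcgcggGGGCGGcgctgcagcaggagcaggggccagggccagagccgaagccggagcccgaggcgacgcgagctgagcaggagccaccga
The GC box, a short binding sequence of Sp and Krüppel-like factors, occurred in each of the 4, so it does not distinguish the higher from the lower relatives. It occurred 6 times in Slc12a7 and in Slc12a4 and 4 times in Slc9a3r1 and in Slc9a3r2, with overlapping matches counted. Of 27025 promoters of this length, 1 a gene, 35.9% hold it, and of the 39 members searched 21 do. Members on 1 chromosome were left out of the 39. Slc12a7 alone among the 4 also held the hexamer, present in 16.0% of all promoters, and the ETS site, present in 15.2% and found 2 times, on opposite strands with overlapping bases. The TATA box TATAAA (14.2% of all promoters), the GATA site AGATAA (11.4%) and the grainyhead site AACCGGTT (0.155%) were searched on both strands and matched none of the 4. A match is a description of letters and not a site in use.

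On brightest probe sets, the largest change of any transporter here that passed was in Slc9a2 (NHE2), a sodium-proton exchanger of the plasma membrane of epithelia. It read 10.19, 10.19 and 10.32 in the DsRed-positive arrays, a spread of only 0.08 (SD), and 6.48, 7.14 and 7.36 in the DsRed-negative ones. All DsRed-negative values lay below the control level of their arrays, so the gene is at least 5.37-fold higher in DsRed-positive cells. The fitted change was 3.24 ± 0.36 (SE, adjusted p = 0.000976), it depends on signal below the control level, and it was 2.09 with a larger offset (adjusted p = 0.000399). It was 2.99 without both arrays numbered 1 (adjusted p = 0.0255).

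No other exchanger of the family passed on its brightest probe set. Slc9a7 (NHE7), an exchanger of the Golgi network, read 10.32, 8.34 and 10.17 against 7.06, 8.12 and 7.54, so that all DsRed-positive arrays were higher but DsRed-positive 2 lay close to DsRed-negative 2. Its change of 2.04 ± 0.59 (SE, adjusted p = 0.0543) did not pass. The adjusted p was 0.0164 without DsRed-positive 2 and 0.320 without both arrays numbered 1. Slc9a4 (NHE4), known from acid-secreting stomach cells and kidney tubules, read 9.37, 7.73 and 9.07 against 6.72, 7.84 and 7.61, with overlap between DsRed-positive 2 and DsRed-negative 2. Its change was 1.34 ± 0.53 (SE, adjusted p = 0.133). Slc9a9 (NHE9), an endosomal exchanger, read 8.22, 7.15 and 6.83 against 10.53, 7.99 and 8.48, where only DsRed-negative 1 stood far above the rest. The change was -1.60 ± 0.71 (SE, adjusted p = 0.169), and -0.85 without DsRed-negative 1. Slc9a5, best known from neurons (-0.81), the Golgi exchanger Slc9a8 (0.74) and Slc9a3 (NHE3), the apical exchanger of gut and kidney (0.20), had smaller values.

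**Figure D2:**
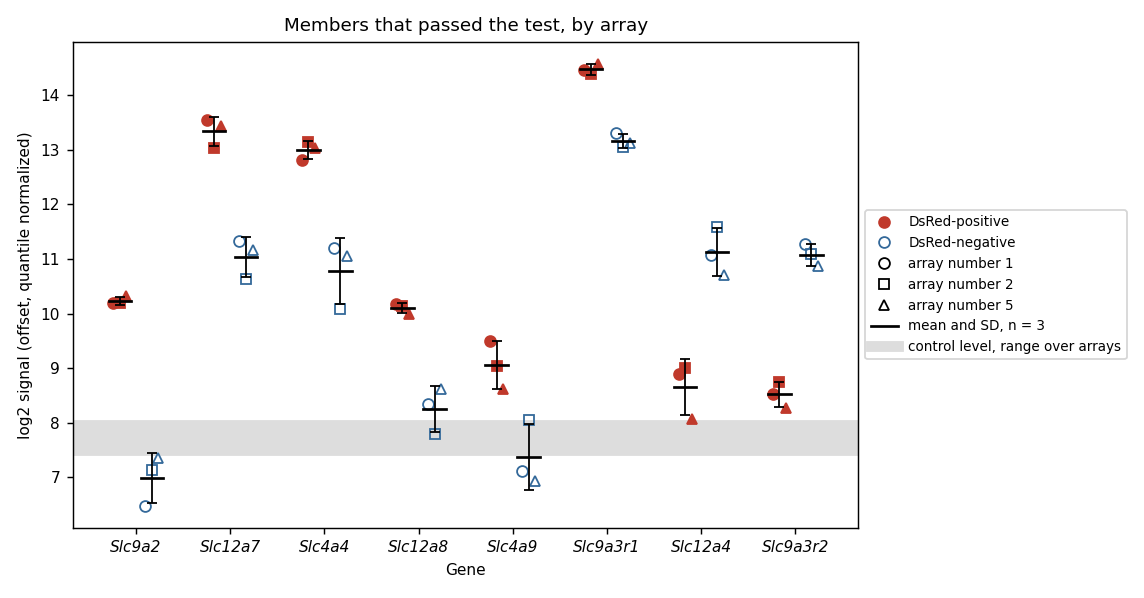
Normalized log2 signal of the 8 members that passed the test on each array; red filled marks are DsRed-positive and blue open marks DsRed-negative arrays, the mark's shape gives the array number, bars are mean and SD of 3 arrays, and the grey band is the range of control levels. The groups do not overlap for any of the 8, and only Slc9a2 has all DsRed-negative arrays below the control level.

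Among bicarbonate transporters, Slc4a4 (NBCe1), an electrogenic sodium-bicarbonate cotransporter, was higher in DsRed-positive cells. It read 12.82, 13.14 and 13.04 against 11.20, 10.09 and 11.06, with the widest gap at DsRed-negative 2. The means were 13.00 ± 0.16 (SD, n = 3) against 10.78 ± 0.61. The change was 2.22 ± 0.40 (SE, adjusted p = 0.00838), 4.65-fold, or 2.50 (adjusted p = 0.0589) without both arrays numbered 1. Slc4a9 (AE4), named as an anion exchanger and best known from kidney intercalated cells, read 9.50, 9.04 and 8.62 against 7.12, 8.05 and 6.93. The groups did not overlap, but only DsRed-negative 2 lay above its control level in that group. Its change of 1.69 ± 0.43 (SE, adjusted p = 0.0349) lost its call in 5 of 6 fits that left out 1 array (at most 0.135, leaving out DsRed-positive 1). It was also lost with the array number as a replicate block (0.0517), on deposited values before normalization (0.0973) and without both arrays numbered 1 (0.238).

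The remaining Slc4 members did not pass. Slc4a11, a transporter known from corneal endothelium, read 9.38, 9.55 and 9.32 against 9.03, 8.44 and 8.41, without overlap, and its change was 0.79 ± 0.34 (SE, adjusted p = 0.155). The adaptor Slc4a1ap did not overlap either, with a change of 0.77 ± 0.34 (SE, adjusted p = 0.167). The chloride-bicarbonate exchangers Slc4a2 (AE2) and Slc4a3 (AE3) had values of 0.65 and -0.75. Slc4a1 (band 3), the anion exchanger of red cells, was too dim to test, and on its brightest probe set its DsRed-negative arrays all lay at or below their control levels.

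Within the other cation-chloride cotransporters, Slc12a8, a less well understood member, read 10.17, 10.14 and 10.00 against 8.34, 7.79 and 8.62. DsRed-positive arrays agreed to within 0.09 (SD) and lay above all DsRed-negative ones. The change was 1.85 ± 0.35 (SE, adjusted p = 0.0104), 3.60-fold, with an adjusted p of 0.0557 without DsRed-positive 1 and 0.106 without both arrays numbered 1. Slc12a2 (NKCC1), which brings sodium, potassium and chloride into cells and is blocked by bumetanide, read 12.88, 12.74 and 12.21 against 12.68, 13.06 and 13.47. Its groups overlapped, its change was -0.46 ± 0.37 (SE, adjusted p = 0.444), and the value was 0.20 when arrays were centred on their medians. Slc12a5 (KCC2), a neuronal potassium-chloride cotransporter (0.27, and 1.17 without DsRed-negative 1), Slc12a9 (-0.09) and the kidney cotransporter Slc12a1 (-0.25) did not pass.

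No phosphate transporter passed. Slc20a1 (PiT1), a widely expressed sodium-phosphate cotransporter, read 14.51, 14.29 and 13.64 against 14.56, 15.05 and 13.55 with overlapping groups. The change was -0.24 ± 0.48 (SE, adjusted p = 0.775), and 0.27 when arrays were centred on their medians. Slc20a2 (PiT2) had a value of 0.30 ± 0.39 (SE, adjusted p = 0.645). The Slc34 transporters, known from kidney and gut, had values of -0.05 for Slc34a1, -0.10 for Slc34a2 and 0.73 for Slc34a3, with adjusted p from 0.380 to 0.952.

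The largest changes that did not pass were in an anion transporter and a calcium exchanger. Slc26a7, a chloride and bicarbonate transporter of kidney and stomach, read 7.58, 6.63 and 6.85 against 10.94, 7.03 and 11.55. DsRed-negative 1 and 5 stood far above all others, while DsRed-negative 2 lay among the DsRed-positive values. The change was -2.82 ± 1.09 (SE, adjusted p = 0.123), and -4.32 (adjusted p = 0.00163) without DsRed-negative 2. Slc8a1 (NCX1), the sodium-calcium exchanger abundant in heart and smooth muscle, read 9.36, 8.46 and 7.60 against 10.23, 9.34 and 12.07. DsRed-negative 2 lay just below DsRed-positive 1, and the change was -2.07 ± 0.75 (SE, adjusted p = 0.104), or -2.75 (adjusted p = 0.0474) without DsRed-negative 2. Smooth muscle and mural markers were lower in the DsRed-positive arrays, and their part in the Slc8a1 values was not tested.

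**Figure D3:**
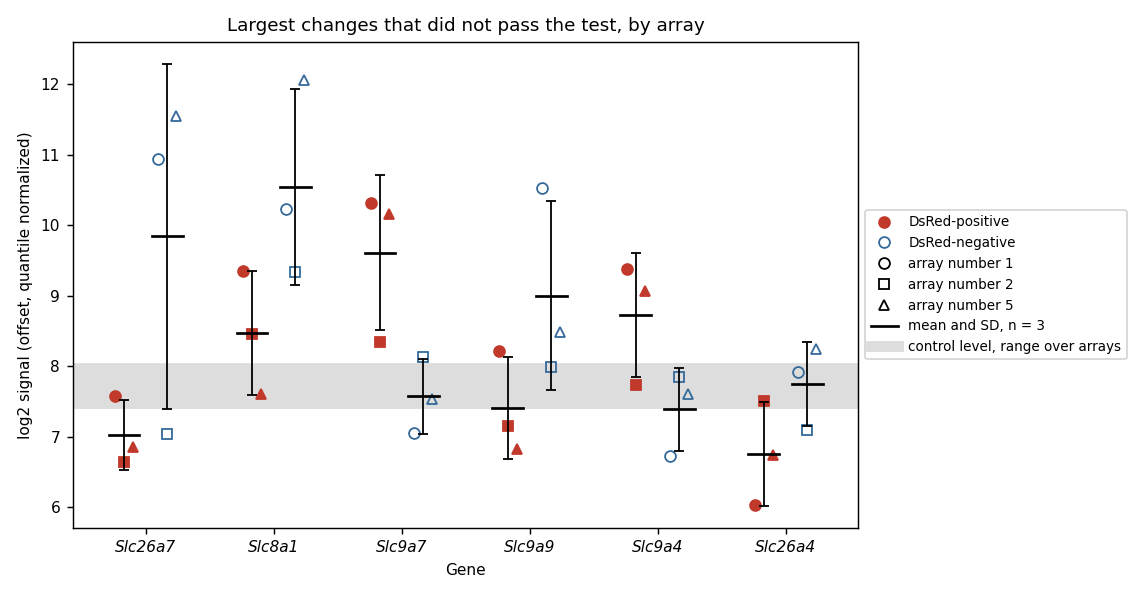
Normalized log2 signal, by array, of the 6 members with the largest changes among those that did not pass; marks and bars as in the plot of called members. Slc26a7 spans the widest range within DsRed-negative cells, from 7.03 to 11.55, and only for Slc9a7 do the groups not overlap.

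Of the other anion transporters, Slc26a4 (pendrin), an exchanger of chloride, bicarbonate and iodide, read 6.03, 7.51 and 6.73 against 7.91, 7.09 and 8.25. All DsRed-positive arrays lay at or below the control level, and the change was -0.99 ± 0.50 (SE, adjusted p = 0.218). The DsRed-negative mean was 1.19-fold above the mean control level of the DsRed-positive arrays. DsRed-negative 2 also lay below its own control level and the groups overlapped, so this fold is no lower bound on a difference. Slc26a2, the sulfate transporter needed for cartilage proteoglycans, read 13.14, 11.78 and 12.43 against 12.81, 12.62 and 12.54. It overlapped throughout, with a change of -0.20 ± 0.42 (SE, adjusted p = 0.778), and 0.45 when arrays were centred on their medians. Slc26a6, a chloride-oxalate and bicarbonate exchanger, had a value of -0.60, and 0.16 without both arrays numbered 1. The potassium-dependent sodium-calcium exchangers Slc24a3 and Slc24a4 had values of -0.43 and -0.59.

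The 14 members too dim to test were Slc4a1, Slc4a5, Slc4a10, Slc8a2, Slc8a3, Slc12a3, Slc24a1, Slc24a2, Slc26a1, Slc26a3, Slc26a5, Slc26a8, Slc26a10 and Slc26a11. Their mean log2 signals ran from 5.87 to 7.14. On the brightest probe set of each, 8 lay at or below the control level on every array and 6 lay above it on 1 array; dimmer probe sets of Slc4a1 and Slc26a3 also lay above it on 1 or 2 arrays. Many are known from kidney, nerve, gut or testis, such as the thiazide target Slc12a3 and the hair cell motor protein Slc26a5 (prestin). The sodium-bicarbonate cotransporter Slc4a5 did not overlap between groups, at 5.53, 5.66 and 6.00 against 6.08, 7.73 and 6.17, but only DsRed-negative 2 was above its control level. Slc8a3 was highest on the same array, at 9.42.

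Probe sets of the same gene did not always give the same result, and 17 members had more than 1 tested. With a gene counted wherever any of its probe sets passed, 8 members (22.9% of those tested) were higher, beside 13.0% of all tested genes, and 2 were lower. For lower genes, the share of all tested genes was not counted in this way. The additional higher genes were Slc4a8 and Slc9a8. Slc4a8, a sodium-driven chloride-bicarbonate exchanger, did not pass on its brightest probe set, at 0.26 ± 0.42 (SE, adjusted p = 0.708), while another read 8.90, 9.23 and 9.77 in the DsRed-positive arrays against 6.45, 6.32 and 7.09, a change of 2.68 ± 0.39 (SE, adjusted p = 0.00335). On that probe set every DsRed-negative array lay below its control level, so the difference was at least 2.81-fold. Another gave 1.62 ± 0.46 (SE, adjusted p = 0.0509). Slc9a8 gave 0.74 ± 0.59 (SE, adjusted p = 0.435) on its brightest probe set, where DsRed-negative 1 alone was high among its group, and 1.34 without that array. Of its other 3 probe sets, 2 were higher, at 2.27 ± 0.31 (SE, adjusted p = 0.00239) and 1.36 ± 0.36 (SE, adjusted p = 0.0399), with bounds of at least 1.48-fold and 1.79-fold because no DsRed-negative array lay above its control level. The last gave -0.72.

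Among the members that passed, Slc12a7 and Slc12a8 rose on both of their probe sets, by 3.26 for Slc12a7 on its dimmer one and by at least 2.69-fold for Slc12a8, with no DsRed-negative array above its control level there. Slc9a3r1 rose on 2 of 3, and the third gave 0.37. Slc9a3r2 fell on 2 of 4 tested, and the others gave -0.66 and 0.42. The size and the call of Slc9a3r2 thus rest on the probe set used. Slc4a4 rose on 1 of 4 tested, with 0.78, 0.55 and 2.03 on the others, and as a mean of probe sets it changed by 1.18 (adjusted p = 0.0229). Slc9a2, Slc4a9 and Slc12a4 had 1 probe set each, so nothing here checks them in this way. Slc12a2 gave 1.51 and 0.13 on its dimmer probe sets against -0.46 on the brightest, and no probe set of it passed.

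**Figure D4:**
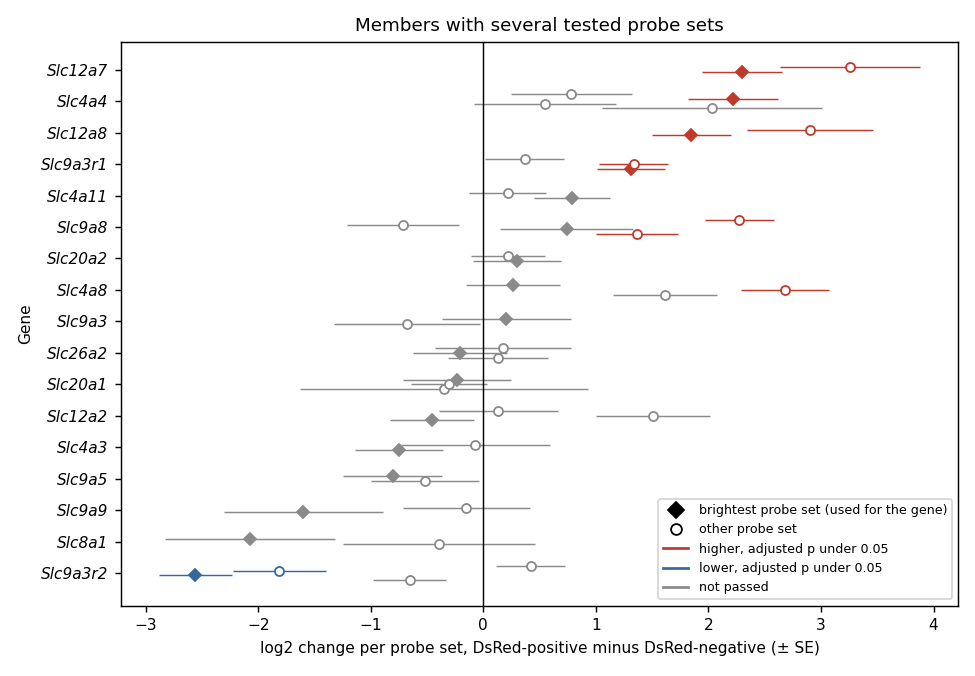
Log2 change with its standard error for every tested probe set of the 17 members that have several, DsRed-positive minus DsRed-negative; diamonds mark the brightest probe set, used for the gene, and circles the others. Red circles without a red diamond mark Slc4a8 and Slc9a8, and no member has probe sets that passed in both directions.

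Genes that control these transporters were read from 3 lists, which were chosen with earlier results of these data known. Of 17 tested regulators and scaffolds (21 listed), including both NHERF genes, 8 were higher, 1 was lower and 8 did not pass, beside 9.21% of all tested genes called higher and 11.3% called lower. The median change was 1.24 beside 0.04 for all tested genes. Its tested genes passed the same filter on dim probe sets, so these values describe the listed genes only. Ezrin (Ezr), which ties NHERF1 and its cargo to the actin cortex, rose by 3.66 ± 0.43 (SE, adjusted p = 0.00134), but had a value of 0.97 (adjusted p = 0.101) as the average of its 2 probe sets. Cab39l, a partner of the kinases SPAK and OSR1, rose by 2.66 ± 0.44 (SE, adjusted p = 0.00592), and Ahcyl2, a relative of the NBCe1 activator IRBIT, by 2.59 ± 0.42 (SE, adjusted p = 0.00538). Both lost their calls without both arrays numbered 1. Genes named after their values were seen were Oxsr1 (2.30) and Stk39 (2.07), which encode OSR1 and SPAK, kinases that activate sodium-dependent chloride cotransporters and inhibit potassium-chloride cotransporters, the ubiquitin ligase Nedd4l (2.86) and the phosphate exporter Xpr1 (1.24). Oxsr1 lost its call without DsRed-positive 1 (adjusted p = 0.0534), and Stk39 and Xpr1 each lost theirs in 5 of 6 fits without 1 array (at most 0.128, leaving out DsRed-positive 2, and 0.155, leaving out DsRed-positive 1). The upstream kinases, also named after their values were seen, did not pass, with values of 0.30 for Wnk1, -0.18 for Wnk2, -0.95 for Wnk3 and 0.44 for Wnk4. Named likewise, the remaining tested genes of this list did not pass. They were Ahcyl1, which encodes IRBIT itself (-0.09, adjusted p = 0.894), Sgk1 (-0.97), Cab39 (1.39) and Cul3 (0.32). The groups did not overlap for Sgk1 (adjusted p = 0.105) or Cab39 (adjusted p = 0.0512). The urothelial markers rose in the same arrays, and their part was not tested.

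Carbonic anhydrases, which interconvert carbon dioxide and bicarbonate, mostly did not pass: of 14 tested (16 listed), 1 was higher, 1 lower and 12 neither, shares near or under the 9.21% and 11.3% of all tested genes, with a median change of -0.35. Car3, abundant in muscle and fat, changed by -6.57 ± 0.37 (SE, adjusted p = 9.28e-05), from 17.24 in DsRed-negative to 10.66 in DsRed-positive cells. The mitochondrial Car5b was higher by 1.52 ± 0.43 (SE, adjusted p = 0.0470), but lost its call in all 6 fits without 1 array (at most 0.148, leaving out DsRed-positive 5). The cytosolic Car2 (1.09) and the membrane enzyme Car12 (0.83) did not pass.

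Of sodium pump subunits and regulators, 2 of 9 tested (15 listed) were higher, 3 lower and 4 neither, beside 9.21% and 11.3% of all tested genes, with a median change of -0.36. Of the FXYD proteins, small regulators of the pump, Fxyd3 rose by 3.30 ± 0.37 (SE, adjusted p = 0.00113). Fxyd1 (phospholemman), abundant in muscle, was at least 8.46-fold lower (adjusted p = 0.000202). Fxyd5 changed by -3.70 ± 0.42 (SE, adjusted p = 0.00114) and Fxyd6 by -2.23 ± 0.42 (SE, adjusted p = 0.00997), the latter losing its call without DsRed-positive 1 (0.0533). The pump subunit Atp1b1, named after its value was seen, rose by 2.55 ± 0.60 (SE, adjusted p = 0.0255), and lost its call without any 1 of the DsRed-positive arrays (at most 0.0922, leaving out DsRed-positive 1). Matrix and muscle markers were lower in the same arrays as Fxyd1, Fxyd5, Fxyd6 and Car3, and their part was not tested.

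**Figure D5:**
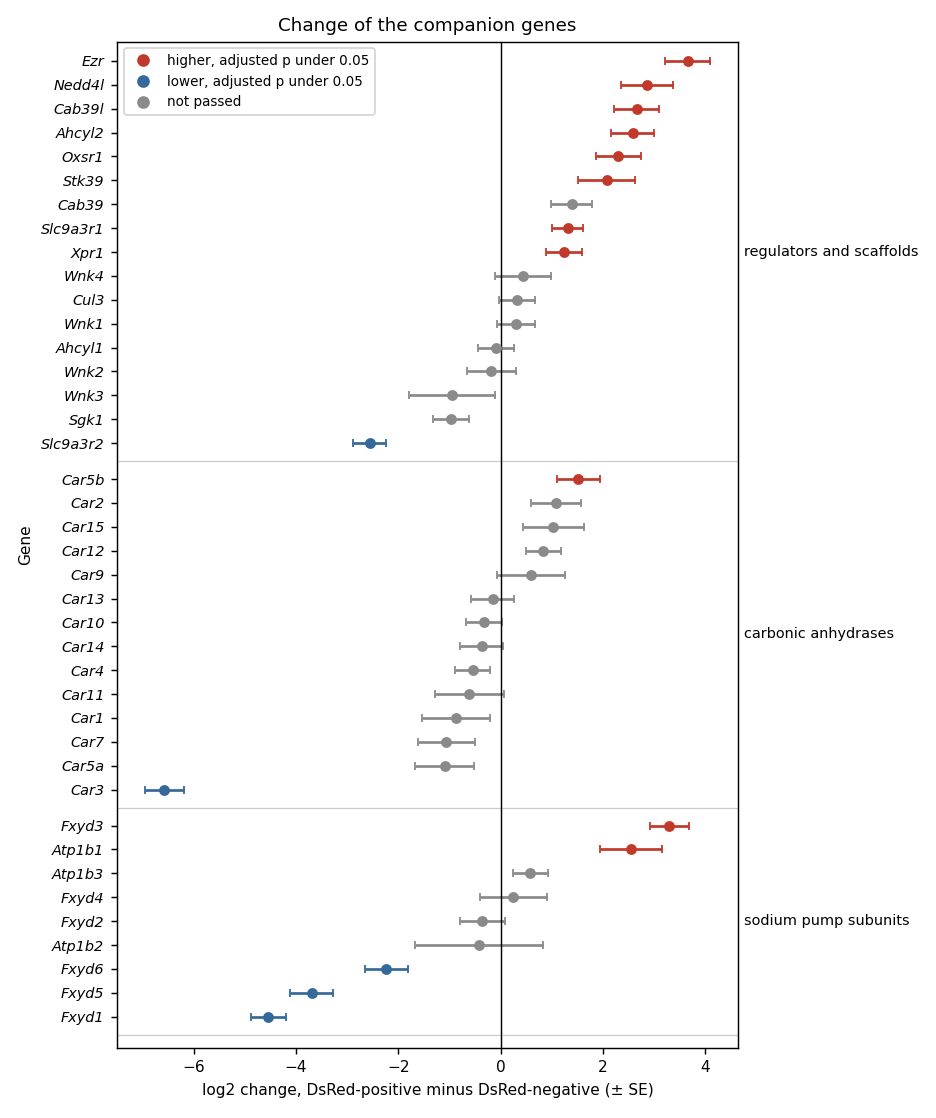
Log2 change with its standard error of the tested genes of the 3 companion lists, DsRed-positive minus DsRed-negative; red and blue points passed the test and grey points did not. Called regulators lie to the right of 0 except Slc9a3r2, and the FXYD genes lie on both sides.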

How the data were processed

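Probe set signals of 6 Affymetrix Mouse Genome arrays were read from the value table the authors deposited, as linear intensity. Per the labels' protocols, RNA was amplified in 2 rounds. GCOS is named in the submitters' processing notes, with version and settings not given in the sources used here. Deposited intensity had a mean of 1500.01 on every array after trimming 2% at each end, so arrays had been scaled before. Detection calls were not used. The number of arrays limits the precision.

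To each value 39.84 was added (the 20th percentile), log2 was taken and, because array medians spanned 0.74, arrays were quantile normalized; before this the group means of the medians differed by -0.54, DsRed-positive minus DsRed-negative. The offset compresses folds of dim genes. Control probe sets (64 of 45101) were left out; 30175 probe sets whose mean exceeded the 33rd percentile (7.18) were tested with limma 3.58.1 in R 4.3.3 (lmFit, eBayes, two-sided, Benjamini-Hochberg over all tested probe sets, threshold 0.05). Symbols came from the platform annotation through gene IDs: 34945 probe sets had 1 symbol (34741 matched by ID), 932 several and 9160 none here. A gene was read on its brightest single-gene probe set; 1 probe set shared between Slc9a7 and another gene was left out. Where all arrays of a group lay at or below the control level, the fold was taken against that level. The scripts were tested on simulated data. Members, lists, markers and alternatives were chosen with earlier results of these data known. All members were accounted for; those that passed, the 6 largest changes that did not, and the 4 brightest were given by array, and of each companion list the 4 with the smallest p were named. The alternatives were the scaling, offset, filter, variance model, probe set choice, replicate block and arrays left out. Counting a gene by any of its probe sets was added after seeing the data.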

Additional observations from a re-analysis of the deposited data

How the results depend on the processing

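No member that passed changed direction under any alternative tried. The count of higher members (6) ranged from 3 to 5 over the fits without 1 array and was 1 without both arrays numbered 1, where fewer arrays were fitted; in the alternatives with all 6 arrays it was 4 to 8. The count of lower members (2) ranged from 2 to 4 without 1 array, and was 1 without both arrays numbered 1 and 1 with each gene as the average of its probe sets. Beyond the main fit, the share of all genes called was counted only without both arrays numbered 1 and, for higher genes, by any probe set. In the other alternatives a loss or gain of member calls cannot be told apart from one over all genes. Only Slc9a2 kept its call in all 17 alternatives. The median change of the tested members (-0.05) was 0.27 with median-centred arrays, 0.27 with a filter at the 50th percentile and 0.39 with each gene as the average of its probe sets. Of the members that did not pass, 4 did so under some alternative: Slc9a7 under 6, Slc26a7 and Slc8a1 without DsRed-negative 2, and Slc9a8 as the mean of its probe sets. The companion genes called higher (11) numbered 5 to 10 without 1 array, 4 without both arrays numbered 1 and 7 with the number as a replicate block.

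Same-numbered arrays deviated together only weakly (correlations of 0.15, 0.04 and 0.05), and nothing states what a number marks, so the numbers were not taken as pairs. Each DsRed-positive array correlated best with its own number, and both arrays numbered 1, and no others, read high for Xist and low for Eif2s3y; whether a number marks a shared animal or preparation was not tested. With the replicate block, 4 members were higher and 2 lower, and Slc4a9 (adjusted p = 0.0517) and Slc9a3r1 (0.0586) lost their calls. The share of all genes called in that fit was not counted.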
